A study of Mus musculus with 6 samples.

Results

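The pentraxins, the orosomucoids and the inter-alpha-trypsin inhibitor family comprise 10 genes here, namely Apcs, Crp, Orm1, Orm2, Orm3, Itih1, Itih2, Itih3, Itih4 and Ambp. They were chosen by gene symbol, and each of the 10 was found among the 23282 genes of the expression table. All 10 also had enough reads to be tested, as did 11657 genes in total. RNA was measured in primary hepatocytes, the parenchymal cells of the liver, isolated by collagenase perfusion from C57BL6/N mice and kept in culture. The control group (3 samples) received no treatment, and the IL-1β group (3 samples) received recombinant IL-1β protein, an inflammatory cytokine, for 24 h. The deposited design text speaks of 2 replicates, while 3 samples per group are listed and were used. No genetic change separated the groups, the age of the mice is not given in the sources used here, and cultured cells lack the blood flow and neighbouring cells of a liver. The comparison asks which genes change with IL-1β. The labels do not say whether the 3 samples of a group came from separate animals or cultures, so the p-values measure the spread between these samples only, which may be technical.

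These plasma proteins are made mainly by hepatocytes. Pentraxins are ring-shaped pattern recognition proteins that bind microbes and dying cells and engage complement and Fc receptors. Apcs encodes serum amyloid P component, the main acute phase pentraxin of the mouse, and Crp encodes C-reactive protein, which in this species responds less than in humans. Orosomucoids, also called alpha-1-acid glycoproteins, are lipocalins that carry lipophilic compounds and drugs in plasma. In the inter-alpha-trypsin inhibitor family, heavy chains encoded by Itih1, Itih2 and Itih3 are joined through a chondroitin sulfate chain to bikunin, a protease inhibitor cut from the Ambp precursor together with alpha-1-microglobulin, and can be passed on to hyaluronan in the matrix. The Itih4 protein belongs to the same family but circulates without bikunin.

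After IL-1β, both pentraxins and the 3 orosomucoids rose, Itih2 fell, and Itih1, Itih3, Itih4 and Ambp did not pass the test. The test was edgeR's quasi-likelihood test on the deposited read counts, with Benjamini-Hochberg adjustment over all genes tested and an adjusted p below 0.05 as the threshold. By this rule 5 of the 10 members were higher, against 6.97% of all genes tested, and 1 was lower, against 6.44%. Of all genes tested, 13.4% were called in either direction, 812 higher and 751 lower. With scaling by total counts in place of the TMM method, 39.6% of the calls were increases, against 52.0% under TMM, and each of the 10 members kept its direction. Levels are given below as CPM, the read count divided by the library size after TMM scaling. Control and IL-1β samples stood apart without overlap for 6 of the 10 members, 5 higher and 1 lower, against 28.2% of all genes tested. For single values such as ratios an exact permutation test was used, whose smallest two-sided p is 0.1 with 3 samples in each group.

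**Figure D1:**
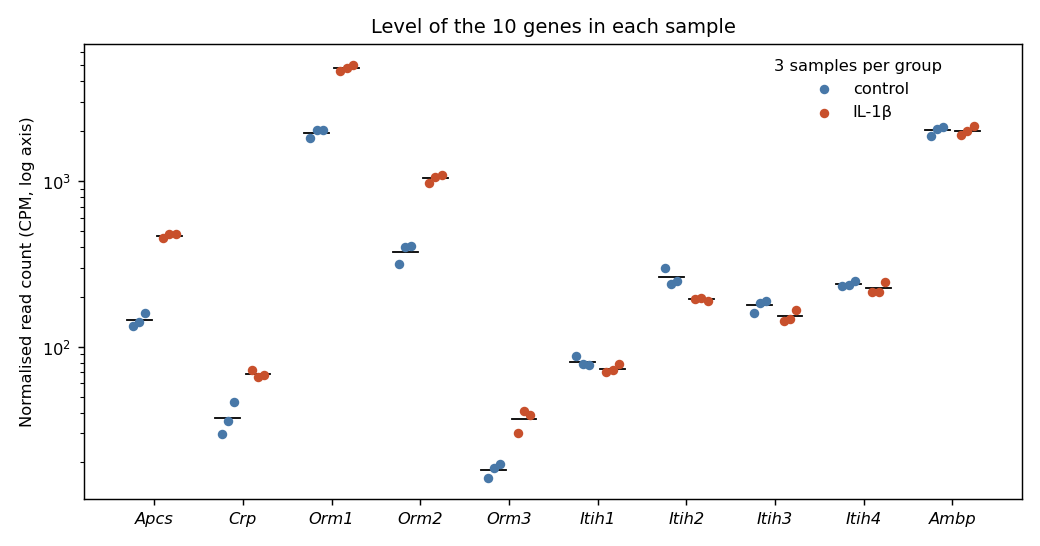
Normalised read count (CPM, log axis) of the 10 genes in each of the 6 samples, with points for samples (blue control, orange IL-1β) and black lines for group means. The orange points of Apcs, Crp, Orm1, Orm2 and Orm3 lie above the blue points without overlap, those of Itih2 lie below, and those of Itih1, Itih3, Itih4 and Ambp overlap the controls.

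The promoters of Apcs, Crp, Orm2, Orm3 and Itih2, members that passed the test, are shown first. Whether promoter letters relate to the direction of a change was not tested. The sequences are from RefSeq (build GRCm38.p6), 300 bases running from 250 bases before the transcription start to 50 bases from it, printed 5′ to 3′ in the direction of the gene. A promoter sequence was found for 9 of the 10 members, all except Orm1. Capitals mark matches to motifs that were searched on both strands, unless stated otherwise. The C/EBP motif was TTGCNNAA, the STAT3 motif TTCNNNGAA and the HNF4 motif CAAAGTCCA. For NF-κB the letters were GGG and CC with any 5 bases between them, and for HNF1 they were GTTAAT and ATT with any 1 base between them. The cyclic AMP response element (CRE) was searched as TGACGT. For the TATA box the letters were TATAAA, on the gene strand only. A match describes letters and not a bound site.

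The pentraxin genes differ in their promoters. That of Apcs lies at chr1:172895005-172895304 on the minus strand and that of Crp at chr1:172697806-172698105 on the plus strand.
Apcs: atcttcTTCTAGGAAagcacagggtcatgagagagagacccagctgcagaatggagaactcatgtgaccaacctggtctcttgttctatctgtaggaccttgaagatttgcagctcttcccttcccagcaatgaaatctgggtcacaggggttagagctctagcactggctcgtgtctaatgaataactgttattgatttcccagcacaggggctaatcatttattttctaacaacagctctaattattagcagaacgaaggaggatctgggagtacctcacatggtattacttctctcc
Crp: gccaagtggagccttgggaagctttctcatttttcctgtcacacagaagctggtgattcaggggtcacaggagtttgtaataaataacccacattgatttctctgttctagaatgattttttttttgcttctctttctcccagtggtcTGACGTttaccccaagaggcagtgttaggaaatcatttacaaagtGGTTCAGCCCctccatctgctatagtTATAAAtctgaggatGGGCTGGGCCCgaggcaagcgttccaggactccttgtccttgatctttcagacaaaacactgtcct

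Apcs holds the STAT3 letters TTCTAGGAA at position -244 from its start. Crp lacks them and holds the CRE letters at -102, a TATA box at -31 and 3 overlapping or nearby NF-κB matches between -57 and -15. Among the 9 members with a promoter, the STAT3 letters are also in Itih4, at -51, and Itih4 did not pass the test. The NF-κB letters are also in Itih3, Itih4 and Ambp, none of which passed. The NF-κB letters are present in 50.8% of 32851 promoters, the STAT3 letters in 8.30%, the CRE letters in 7.51% and the TATA letters in 8.32%.

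The Orm2 promoter lies at chr4:63362199-63362498 on the plus strand, that of Orm3 at chr4:63355908-63356207 on the plus strand and that of Itih2 at chr2:10130634-10130933 on the minus strand.
Orm2: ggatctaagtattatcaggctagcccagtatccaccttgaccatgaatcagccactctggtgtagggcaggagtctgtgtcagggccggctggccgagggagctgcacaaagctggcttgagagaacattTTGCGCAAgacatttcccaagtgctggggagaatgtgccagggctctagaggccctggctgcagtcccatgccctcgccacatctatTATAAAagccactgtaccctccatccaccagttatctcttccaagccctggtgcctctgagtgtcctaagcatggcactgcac
Orm3: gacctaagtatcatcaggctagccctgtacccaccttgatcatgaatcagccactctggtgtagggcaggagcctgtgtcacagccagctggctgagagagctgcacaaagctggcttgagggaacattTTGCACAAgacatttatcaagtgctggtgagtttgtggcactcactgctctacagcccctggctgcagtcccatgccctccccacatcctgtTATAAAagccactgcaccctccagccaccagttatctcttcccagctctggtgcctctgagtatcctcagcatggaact
Itih2: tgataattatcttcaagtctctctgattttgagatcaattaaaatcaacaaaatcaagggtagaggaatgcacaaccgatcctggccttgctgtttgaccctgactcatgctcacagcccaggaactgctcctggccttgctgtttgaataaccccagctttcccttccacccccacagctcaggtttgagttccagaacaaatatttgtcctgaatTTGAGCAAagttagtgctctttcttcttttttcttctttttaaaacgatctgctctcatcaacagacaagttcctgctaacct

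The Orm2 and Orm3 promoters shared 264 of 295 aligned bases (89.5%). Each holds 1 C/EBP match at nearly the same place, TTGCGCAA at -120 in Orm2, which reads the same on both strands, and TTGCACAA at -121 in Orm3, and each has a TATA box, at -33 and -29. Itih2 also holds C/EBP letters, on the reverse strand at -33. This motif occurs in 10.8% of all promoters, and in 3 of the 9 members, including the 1 that fell. The HNF1 and HNF4 letters were found in none of the 9 windows and in 0.399% and 0.475% of all promoters.

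Apcs (chromosome 1, 172893961 to 172895054 on GRCm38, minus strand) showed the largest rise of the 10 genes. Its level was 133, 140 and 159 CPM in the controls and 451, 479 and 476 CPM after IL-1β. The groups were far apart, the lowest treated sample standing well above the highest control. The mean rose from 144 ± 13.5 to 469 ± 15.1 CPM (SD, n = 3 each), which is 3.25-fold (log2 fold change 1.70, with a standard error, SE, of 0.072, adjusted p = 4.2e-15 by edgeR). By the size of its log2 fold change Apcs ranked 105 from the top among the 11657 genes tested, and by adjusted p it ranked 15.

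Crp (chromosome 1, 172698056 to 172699966, plus strand) rose less. It was at 29.6, 35.4 and 46.5 CPM in the controls and at 72.1, 66.0 and 67.1 CPM after IL-1β. The controls were spread widely, with the highest coefficient of variation of any member in either group (23.1%), but did not reach the treated samples. The rise was 1.84-fold (log2 fold change 0.88, SE 0.119, adjusted p = 5.1e-06 by edgeR), from a mean of 37.1 ± 8.57 to 68.4 ± 3.22 CPM (SD, n = 3 each). With a variance taken from Crp alone, on log2(CPM + 1), the adjusted p was 0.105.

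Within each sample the log2 ratio of Apcs to Crp was 2.133, 1.959 and 1.757 in the controls and 2.63, 2.84 and 2.81 after IL-1β. All 3 treated ratios lay above all 3 control ratios. The mean ratio differed by 0.81 log2 units (two-sided exact permutation p = 0.1, the smallest possible, adjusted p = 0.12 over the 6 ratios examined). Apcs accordingly made up 79.7 ± 2.20% of the reads of the pair in controls and 87.3 ± 0.893% after IL-1β (SD, n = 3 each).

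Orm1 (chromosome 4, 63344566 to 63348162, plus strand) was the most abundant orosomucoid. It stood at 1827, 2022 and 2042 CPM in the controls and at 4606, 4841 and 5043 CPM after IL-1β, with no overlap. The increase was 2.46-fold (log2 fold change 1.30, SE 0.060, adjusted p = 1.7e-14 by edgeR), from 1964 ± 119 to 4830 ± 219 CPM (SD, n = 3 each).

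Orm2 (chromosome 4, 63362449 to 63365877, plus strand) had the steepest rise of the 3 paralogs. Its samples read 317, 402 and 404 CPM without treatment and 976, 1061 and 1091 CPM with IL-1β. Here too the groups stood apart, although control replicate 1 was lower than the other two controls. The rise was 2.79-fold (log2 fold change 1.48, SE 0.078, adjusted p = 2.3e-13 by edgeR).

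Orm3 (chromosome 4, 63356162 to 63359511, plus strand) was the least abundant. It was at 16.1, 18.5 and 19.5 CPM in the controls and at 30.04, 41.0 and 38.9 CPM after IL-1β. The treated replicate 1 lay nearest the controls but still above them. The rise was 2.03-fold (log2 fold change 1.02, SE 0.134, adjusted p = 3.2e-06 by edgeR), and with a variance taken from Orm3 alone its adjusted p was 0.0626.

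The 3 orosomucoid genes are closely similar copies, and the split of reads between Orm1 and Orm2 is uncertain. Their transcripts shared 91.0% of aligned bases between Orm1 and Orm2, 87.5% between Orm1 and Orm3 and 89.0% between Orm2 and Orm3. Near the end of the transcript, where QuantSeq reads start, windows of 75 nt within the last 500 nt were searched in every transcript of the GENCODE mouse annotation. Of 426 windows, 22.8% of those of Orm1 and 23.005% of those of Orm2 were also found in another gene. The share was 0.235% for Orm3 and 0 for each of the other 7 members. Every such match lay in another orosomucoid gene. How reads matching several genes were counted is not given in the sources used here.

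Summed over the paralogs, which avoids this split, orosomucoid RNA was 2160, 2443 and 2465 CPM in the controls and 5613, 5942 and 6173 CPM after IL-1β. The sum rose 2.51-fold (log2 fold change 1.33, SE 0.062, adjusted p = 1.6e-14 by edgeR). Its share of all counts in a library was 0.240 ± 0.019% in controls and 0.579 ± 0.026% after IL-1β (SD, n = 3 each). Within the sum, Orm1 held 83.4 ± 1.03% and then 81.7 ± 0.310%, Orm2 15.8 ± 1.02% and then 17.6 ± 0.232%, and Orm3 0.765 ± 0.025% and then 0.618 ± 0.078% (SD, n = 3 each).

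The log2 ratio of Orm2 to Orm1 was higher by 0.18 after IL-1β and that of Orm3 to Orm1 was lower by 0.32, neither with overlap between the groups (two-sided exact permutation p = 0.1 each, the smallest possible, adjusted p = 0.12). The first of these ratios rests directly on the uncertain split of reads between Orm1 and Orm2.

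**Figure D2:**
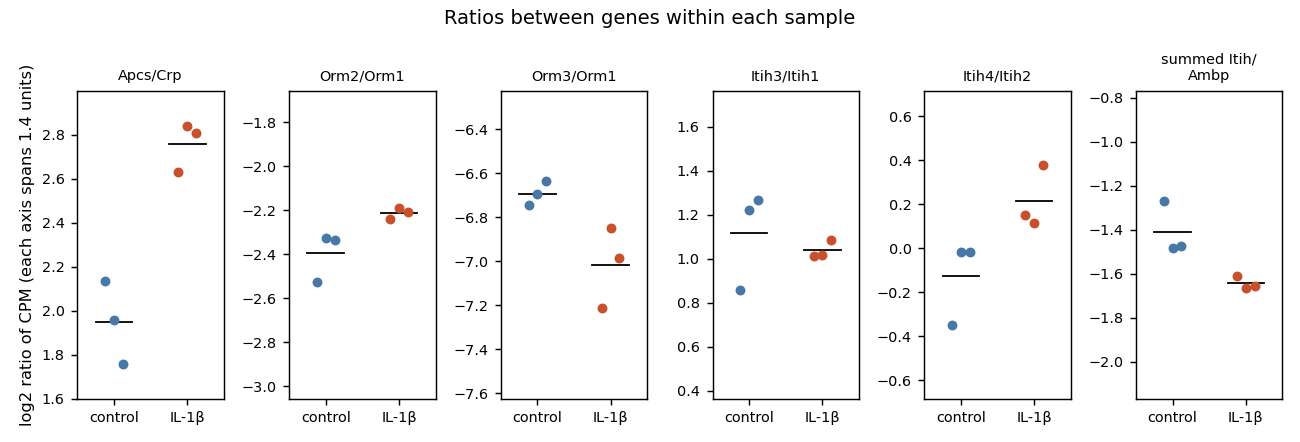
Log2 ratio of CPM between pairs of members in each sample (vertical axes, each spanning the same number of log2 units), with points for samples and lines for group means in control (blue) and IL-1β (orange). The ratio of Apcs to Crp moved most, by 0.81, while the ratio of Itih3 to Itih1 overlapped between the groups.

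Of the 4 heavy chain genes among the members, Itih2 (chromosome 2, 10094591 to 10130683, minus strand) was the 1 gene that fell. Its level was 298, 241 and 250 CPM in the controls and 193, 198 and 189 CPM after IL-1β. The treated samples were close together and below each control, of which replicate 1 was the highest. The mean went from 263 ± 30.7 to 193 ± 4.3995 CPM (SD, n = 3 each), which is a change of -26.5% (log2 fold change -0.44, SE 0.076, adjusted p = 1.3e-04 by edgeR). With a variance taken from Itih2 alone the adjusted p was 0.113.

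Itih1 (chromosome 14, 30929180 to 30943289, minus strand), whose product pairs with that of Itih2 on bikunin, stood at 87.4, 78.6 and 77.7 CPM in the controls and at 70.3, 72.3 and 78.1 CPM after IL-1β. The highest treated sample overlapped the controls, and the log2 fold change of -0.14 (SE 0.085) did not pass the test (adjusted p = 0.345 by edgeR).

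Itih3 (chromosome 14, 30908574 to 30923587, minus strand), which encodes the heavy chain of pre-alpha-inhibitor, was at 159, 185 and 188 CPM without and at 143, 148 and 167 CPM with IL-1β. The groups overlapped through control replicate 1 and treated replicate 3. With a log2 fold change of -0.22 and an SE of 0.079 it did not pass (adjusted p = 0.0722 by edgeR), and the adjusted p was 0.00536 without control replicate 1 and 0.0418 without IL-1β replicate 3, so that Itih3 lay on either side of the threshold depending on these samples.

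Itih4 (chromosome 14, 30886476 to 30901986, plus strand) was at 234, 237 and 248 CPM in the controls and at 214, 214 and 246 CPM after IL-1β. The first 2 treated samples lay below the controls and replicate 3 lay among them. It did not pass the test, with a log2 fold change of -0.09 and an SE of 0.070 (adjusted p = 0.492 by edgeR).

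The summed Itih heavy chains, from 4 genes, were at 778, 741 and 764 CPM in the controls and at 621, 632 and 679 CPM after IL-1β, without overlap. The sum of the heavy chains changed by -15.4% (log2 fold change -0.24, SE 0.060, adjusted p = 0.00698 by edgeR). The call was lost without IL-1β replicate 1 (log2 fold change -0.21, adjusted p = 0.0659) and without IL-1β replicate 2 (-0.22, adjusted p = 0.0535). The composition of the sum differed, with Itih2 at 34.5 ± 3.27% in controls and 30.1 ± 1.963% after IL-1β and Itih4 at 31.5 ± 1.27% and 34.9 ± 1.16% (SD, n = 3 each). The log2 ratio of Itih4 to Itih2 was higher by 0.34 and did not overlap between the groups, whereas that of Itih3 to Itih1 overlapped and differed by -0.08 (exact permutation tests, two-sided p = 0.1 and 0.6, adjusted p = 0.12 and 0.6).

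Ambp (chromosome 4, 63143279 to 63154142, minus strand), the bikunin precursor gene, was abundant and close to level. It was at 1880, 2075 and 2123 CPM in the controls and at 1896, 2007 and 2140 CPM after IL-1β. The ranges nearly coincided, and the log2 fold change of -0.01 had an SE of 0.062 (adjusted p = 0.963 by edgeR). The log2 ratio of summed heavy chains to Ambp, by contrast, was -1.27, -1.48 and -1.47 in the controls and -1.61, -1.67 and -1.65 after IL-1β. The means differed by -0.23, with no overlap between the groups (two-sided exact permutation p = 0.1, the smallest possible, adjusted p = 0.12). The summed heavy chains include Itih4, whose product circulates without bikunin, at 31.5% of the sum in controls and 34.9% after IL-1β.

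**Figure D3:**
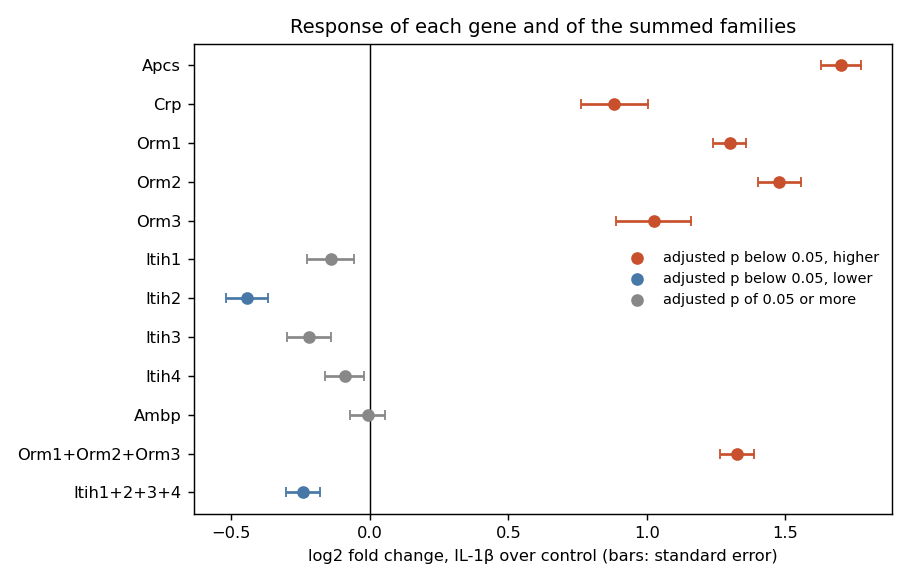
Log2 fold change of IL-1β over control for each gene and for the summed orosomucoids and heavy chains, with bars for the standard error and colour for the call (orange higher, blue lower, grey not called). The 5 pentraxin and orosomucoid genes span 0.88 to 1.70, while the heavy chains and Ambp lie between -0.44 and -0.01.

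For levels between genes, CPM was divided by the gene length given in the deposited table, in kilobases. On this scale the control order was Orm1 (2557), Ambp (1643), Orm2 (483), Apcs (147), Itih2 (84.2), Itih4 (74.6), Itih3 (63.0), Itih1 (26.4), Orm3 (23.3) and Crp (21.9 CPM per kb). Itih2 and Itih4 overlapped in their control samples, as did Itih1, Orm3 and Crp with each other, while the remaining neighbours in the order did not overlap. After IL-1β the order was Orm1 (6289), Ambp (1634), Orm2 (1347), Apcs (476), Itih4 (70.0), Itih2 (61.9), Itih3 (54.1), Orm3 (47.4), Crp (40.3) and Itih1 (23.9 CPM per kb). Orm3 overlapped with Itih3 above it and with Crp below it, and Itih1 was the lowest on this scale. QuantSeq reads come from the transcript end, so the division lowers long genes against short ones, and the order without it differed. By undivided mean CPM the control order ran Ambp, Orm1, Orm2, Itih2, Itih4, Itih3, Apcs, Itih1, Crp and Orm3, and the order after IL-1β ran Orm1, Ambp, Orm2, Apcs, Itih4, Itih2, Itih3, Itih1, Crp and Orm3. Orm3 was thus the lowest in both groups on that scale. All 10 genes together took 0.542 ± 0.037% of the counts in controls and 0.893 ± 0.041% after IL-1β (SD, n = 3 each).

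The members are clustered in the genome, and the clusters were not uniform. Crp and Apcs lie 193994 bp apart on chromosome 1. The 3 orosomucoid genes lie within a short stretch of chromosome 4, with 7999 bp between Orm1 and Orm3 and 2937 bp between Orm3 and Orm2, and Ambp, which did not pass the test, lies 190423 bp before Orm1. Itih4, Itih3 and Itih1 follow each other on chromosome 14 with gaps of 6587 and 5592 bp. Itih2 is the only member on chromosome 2, where the related Itih5, which is not a member, lies near it.

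Within 200 kb of the members, 24 other genes were tested, of which 4 were called, against 13.4% of all genes tested. Near Apcs and Crp 1 of 4 was higher, Slamf8, a receptor of immune cells, from 1.05 to 2.75 CPM, a low level at which the call was lost in 8 of the alternative settings, including without control replicates 1 and 2 and without IL-1β replicates 2 and 3 (adjusted p 0.122 to 0.184). Near Orm1 and Ambp 2 of 5 were higher, the collagen gene Col27a1 from 8.54 to 27.0 CPM (log2 fold change 1.66, adjusted p = 1.7e-07 by edgeR) and Akna from 0.227 to 2.11 CPM, where the control level is under the 3-count limit of detection. Near Itih1, Itih3 and Itih4, 0 of 11 were called in either direction by edgeR, and 0 had an unadjusted p below 0.05.

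Near Itih2 1 of 4 was lower, and this was Itih5, a further heavy chain gene of the family. It was at 16.3, 16.4 and 15.4 CPM in the controls and at 8.23, 6.63 and 5.48 CPM after IL-1β. The samples did not overlap, and the mean fell from 16.05 to 6.78 CPM (log2 fold change -1.25, SE 0.188, adjusted p = 2.5e-05 by edgeR). Of the other relatives listed, Ptx4, Nptx1, Nptx2 and Svep1 had 0 counts in every library, Nptxr did not exceed 0.558 CPM, and Ptx3, the long pentraxin, had counts in 1 IL-1β library only (0.384 CPM). At these depths 3 counts correspond to between 0.269 and 0.321 CPM, a limit that covers counting error only.

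**Figure D4:**
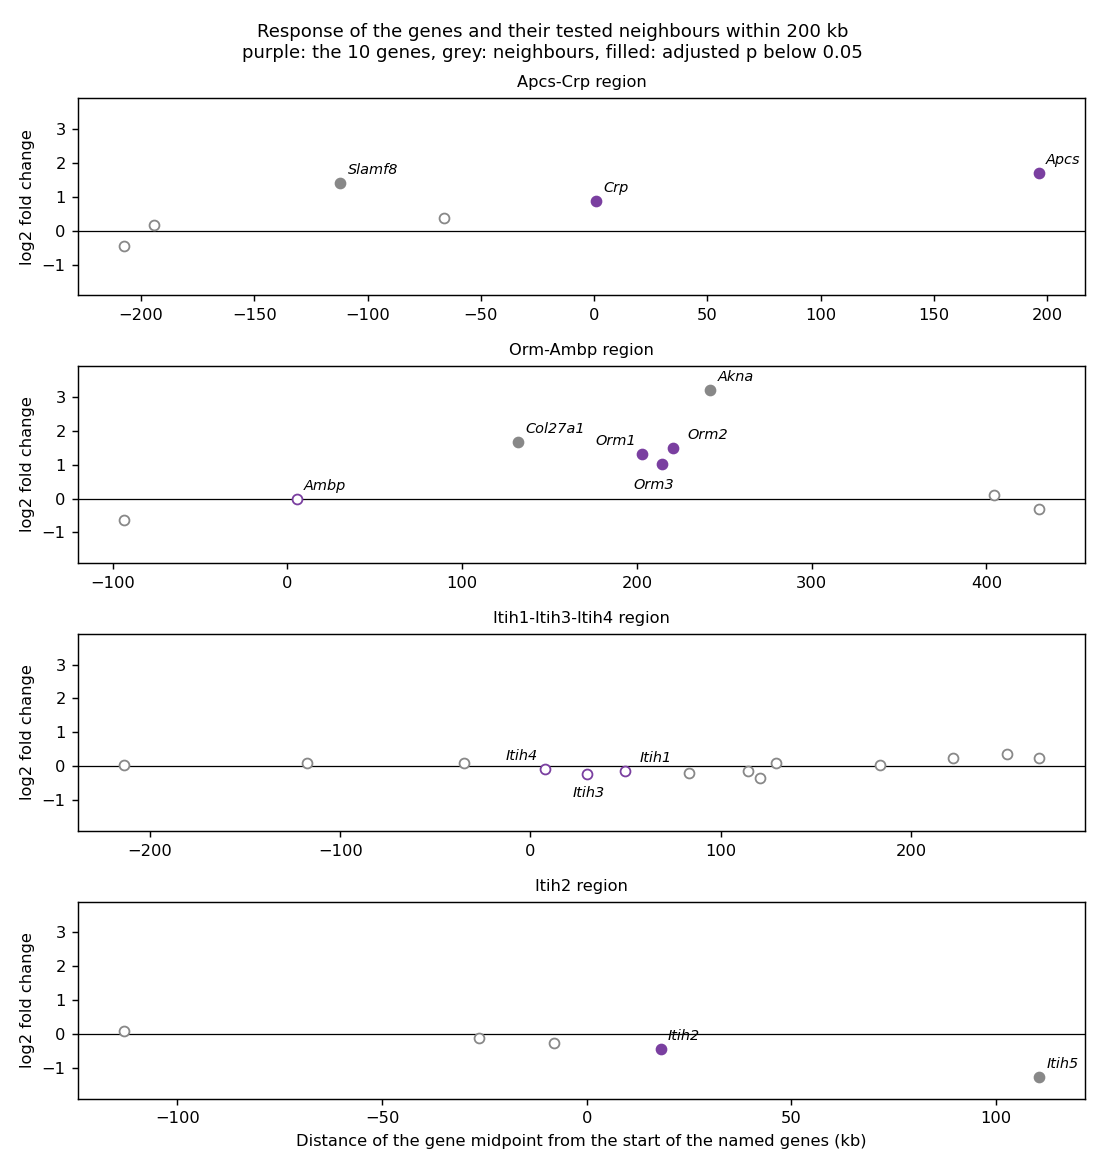
Log2 fold change of the members (purple) and of tested neighbouring genes (grey) against the distance of each gene's midpoint from the start of its cluster in kb, with filled points for an adjusted p below 0.05. The 3 orosomucoid genes stand together above 0 and Ambp lies on the line, and in the Itih1, Itih3 and Itih4 cluster no point is filled.

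Genes that work with the family were examined as lists. In the hyaluronan network, 9 of 19 genes were tested, 2 were higher and 2 lower, with a median log2 fold change of -0.51 against -0.00 for all genes tested. That median is the value of Has3, at only 1.83 CPM in controls and 1.28 CPM after IL-1β and not called (adjusted p = 0.583 by edgeR). The summed level of the list was higher, at 403 to 452 CPM in controls and 494 to 530 CPM after IL-1β. Most of this sum was Ugdh, at 309 CPM in controls and 212 CPM after IL-1β, and Cd44. The rise of Cd44 was larger than that of the sum. Cd44, the main hyaluronan receptor, rose from 31.2 ± 6.96 to 194 ± 15.99 CPM (SD, n = 3 each, log2 fold change 2.64, adjusted p = 2.9e-15 by edgeR), and Ugdh, which makes the UDP-glucuronate used for hyaluronan and chondroitin sulfate, fell (log2 fold change -0.55). Lyve1, an endothelial hyaluronan receptor, was higher (0.45) and the hyaluronidase gene Hyal1 lower (-1.23), and each lost its call on leaving out single libraries. For Lyve1 these were control replicates 1 and 3 and IL-1β replicates 2 and 3 (adjusted p up to 0.137), and for Hyal1 any library other than IL-1β replicate 1 (adjusted p up to 0.213). Tnfaip6, whose product transfers heavy chains to hyaluronan, was not tested, at 0.539 CPM in controls and 0.458 CPM after IL-1β.

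Of 17 genes for assembly of chondroitin sulfate, the bond between heavy chains and bikunin, 12 were tested and 1 was called, with a median of -0.13. This was Csgalnact2, which starts the chain, at 12.96 CPM in controls and 7.90 CPM after IL-1β (log2 fold change -0.71, adjusted p = 0.0124 by edgeR), and its call was lost without control replicate 2 or IL-1β replicate 1 or 2 (adjusted p 0.0524 to 0.0841). Among 9 tested genes for pentraxin receptors and complement partners 1 was called, the Fc receptor gene Fcgr3, from 1.79 to 4.06 CPM (adjusted p = 0.0290 by edgeR), with a list median of 0.21. That call was lost on leaving out any library other than control replicate 1 (adjusted p 0.0606 to 0.143). Of 7 tested lipocalin genes outside the orosomucoids, Lcn2 rose (log2 fold change 2.01), and 4 fell, among them Rbp4, the retinol carrier (-0.95), Apom (-0.69) and the urinary protein gene Mup20 (-0.32). The median of this list was -0.31.

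The upstream pathway was examined in the same way. Of 13 genes for the IL-1 and IL-6 receptors and their relays, 4 were higher and 0 lower. These were the receptor gene Il1r1 (log2 fold change 2.06), the NF-κB inhibitor gene Nfkbia (1.54), the feedback inhibitor gene Socs3 (1.54) and Il6ra (0.45), which missed the threshold without IL-1β replicate 3 (adjusted p = 0.0801). Of 15 acute phase transcription factors 6 were higher and 2 lower. Cebpd rose from 44.7 to 216 CPM and Nfkbiz from 56.5 to 109 CPM, whereas Hnf4a fell from 87.7 to 42.7 CPM and Creb3l3, known as a regulator of Apcs and Crp, from 36.6 to 3.94 CPM.

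Other positive acute phase protein genes were higher in 15 of 19 cases and lower in 0, with a median log2 fold change of 0.82, compared with 0.44 over the 10 members. The median of the members falls in a gap between Ambp (-0.01) and Crp (0.88), so it is the value of no member. Saa3 (4.02), Hamp (3.30), Lcn2 (2.01) and Saa1 (1.29) had the smallest adjusted p of the positive list. Negative acute phase protein genes were lower in 8 of 10 cases and higher in 0, with a median of -0.32, and Ahsg (-1.39), Rbp4 (-0.95), Gc (-0.58) and Ttr (-0.35) led by the same measure. Leaving out IL-1β replicate 1 or 2 reduced the 8 to 5. The fall of Itih2 was thus within the range of the negative list, as a description.

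**Figure D5:**
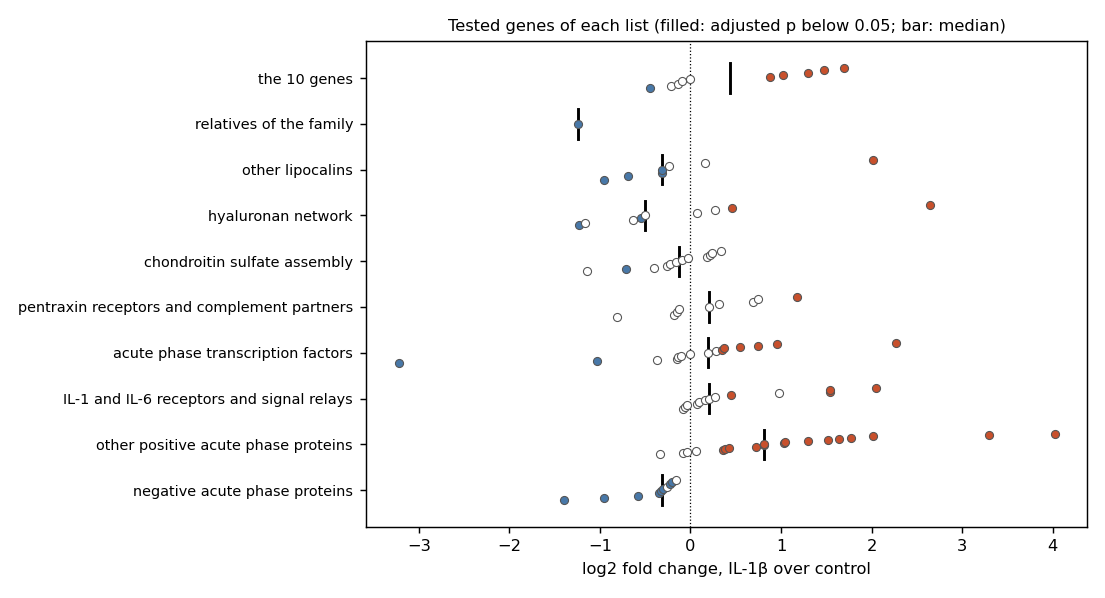
Log2 fold change (horizontal axis) of every tested gene of the 10 members and 9 further lists, with filled points for an adjusted p below 0.05 (orange higher, blue lower), open points for genes not called, and black bars for list medians. The members split into 5 filled points on the right and 1 on the left, the other positive acute phase proteins lie mostly on the right and the negative ones on the left.

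The genes whose pattern over the 6 samples was most like that of Apcs, by Pearson's r of log2 CPM, were Saa1 (r = 0.9996), Ccl5 (0.9996) and Saa2 (0.9993), where the samples form 2 groups and the values are descriptive. Saa1 and Saa2 encode acute phase serum amyloid A proteins and Ccl5 encodes a chemokine. Among the members r with Apcs was 0.998 for Orm1, 0.994 for Orm2, 0.968 for Orm3, 0.948 for Crp, 0.017 for Ambp, -0.520 for Itih4, -0.685 for Itih3, -0.736 for Itih1 and -0.932 for Itih2.

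The libraries held between 9538741 and 11105408 counts, and the ribosomal precursor Rn45s took 11.7 to 14.2% of them. Counts of the members ranged from 171 to 54253 per library. Of the hepatocyte markers 7 of 10 were tested, and 6 of them were lower after IL-1β and 0 higher (3 lower without IL-1β replicate 1). Their summed level was 20028 to 20267 CPM in controls and 16675 to 17601 CPM after IL-1β, with Alb at 16200 and 14104 CPM, while Ass1, Pck1 and G6pc were below 1 CPM on average and Cps1 was at 2.65 CPM in controls. The hepatocyte markers Alb, Ttr and Apoa1 also stand in the list of negative acute phase genes above, so these lists share genes. In such samples fewer cells of a type and less RNA per cell cannot be told apart. Macrophage markers summed to 247 to 277 CPM in controls and 252 to 285 CPM after IL-1β. Most of this was Cd68, at 192 and 184 CPM, followed by Ctss at 30.2 and 29.8 CPM. Clec4f, Vsig4 and Timd4 were not tested, at 1.17, 0.295 and 0.030 CPM in controls and 0.493, 0.261 and 0.031 CPM after IL-1β. Of the macrophage markers 0 of 10 tested were called in either direction by edgeR (3 at an unadjusted p below 0.05, 0 by DESeq2), with 2 higher without control replicate 1. Endothelial markers summed to 78.9 to 88.2 and 78.2 to 85.2 CPM (1 of 8 higher, 2 lower), stellate cell markers to 40.6 to 44.3 and 43.4 to 47.5 CPM (0 of 3 called, 0 at an unadjusted p below 0.05, 0 by DESeq2), and cholangiocyte markers to 320 to 335 and 242 to 244 CPM (1 of 3 lower, Spp1, while Sox9, with an adjusted p of 0.0519 by edgeR, was called higher by DESeq2, with the 10-count filter, by limma on log2(CPM + 1), with the replicate block and without control replicate 1, adjusted p 0.0401 to 0.0480). Eng, at 29.2 CPM in controls and 29.5 CPM after IL-1β, and Lyve1, at 18.8 and 25.8 CPM, were the largest parts of the endothelial sum. Lyve1 was the endothelial marker called higher. Clec4g was called lower, from 5.80 to 0.765 CPM (adjusted p = 1.9e-05 by edgeR). Kdr was also called lower, from 4.55 to 1.62 CPM (adjusted p = 0.00511 by edgeR). The cholangiocyte sum was nearly all Spp1, at 190 CPM in controls and 82.7 CPM after IL-1β, and Sox9, at 134 and 155 CPM. The cholangiocyte markers Krt19, Krt7, Epcam and Cftr were not tested, at or below 0.345 CPM on average in either group. Of the neutrophil markers S100a8 had 0 counts in the controls and was at 2.03, 3.46 and 4.74 CPM after IL-1β, while S100a9, Mpo, Elane and Retnlg had 0 counts in every library. Cd3e, Cd79a and Ms4a1 of the lymphocyte markers also had 0 counts. The part of other cells in the changes of the 10 genes was not tested.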

How the data were processed

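RNA of 6 samples of primary mouse hepatocytes (3 control, 3 IL-1β, 24 h) was sequenced by QuantSeq 3′ mRNA-Seq (single-end reads of 75 nt). Per the submitters' processing notes, the authors aligned the reads with Bowtie2 to mm10 (GRCm38) and normalized them with edgeR. The counting tool and the handling of reads matching several genes are not given in the sources used here. The authors deposited raw read counts per gene, which were used for all tests, and log2 values of normalized counts, which served as a check: log2(CPM + 1) computed here was within 0.1 of the deposited log2 values in 100% of the values of tested genes. The table also holds the authors' group averages, fold changes and p-values, which were not used. Gene positions are those of the table, and promoters are from RefSeq (GRCm38.p6).

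Samples were grouped by their labels. The quasi-likelihood test of edgeR 4.0.16 was run on the counts in R 4.3.3 (filterByExpr, TMM, Benjamini-Hochberg adjustment over 11657 genes). Standard errors are the log2 fold change divided by the square root of F. Sums of paralogs replaced their members as 1 row each. The test was tried on simulated data. Ratios used log2(CPM + 1) and exact permutation tests in Python 3.11.15 with scipy 1.17.1. Pairs of replicates differed by more than sampling noise (chi-square per degree of freedom 4.14 to 9.94). The libraries held 9538741 to 11105408 counts, and 3 counts were taken as the detection limit. Members and gene lists were chosen with earlier results of these data known. All 10 members are named, with at most 4 genes of each list (smallest p among those called, or for markers the highest level), the 3 genes most like Apcs and the called neighbours within 200 kb. Of the genes that this rule selects, 1 is not reported here. Genes at 0, at a low level or not tested were named after their values were seen. Alternatives were DESeq2 1.42.0, limma 3.58.1 on log2(CPM + 1) and log2(CPM + 0.1), Student's test with a variance from each gene alone, scaling by upper quartiles or by total counts, testing without a filter, requiring 10 counts in each sample, a fold change over 1.5, the replicate number as a block, and leaving out each sample.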

Additional observations from a re-analysis of the deposited data

How the results depend on the processing

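Apcs, Orm1, Orm2 and the summed orosomucoids kept their direction and their call under every alternative, with log2 fold changes of 1.64 to 1.77 for Apcs, 1.24 to 1.34 for Orm1 and 1.37 to 1.54 for Orm2. Under Student's test 547 genes were called, 3 members were higher and 0 lower, since Crp, Orm3 and Itih2 lost their calls, and the summed heavy chains (-0.24) had an adjusted p of 0.083. With a fold change over 1.5 also required, 769 genes were called. The members that were lower numbered 2, with Itih3 added, under upper-quartile scaling, total-count scaling and no filter (adjusted p of Itih3 0.0368, 0.0195 and 0.0416), and 1 to 2 on leaving out single samples. Leaving out single samples gave 1131 to 1596 genes called and a change of the summed heavy chains of -0.28 to -0.21. The log2 fold change of Ambp ranged from -0.060 to 0.040 on leaving out single samples, and changed sign without control replicate 2 or 3 or IL-1β replicate 1. The settings for genes outside the family and for the list counts were chosen after seeing the data. Among these, 3 genes near 0 changed sign. Eng was at -0.013 under upper-quartile and -0.039 under total-count scaling and at -0.048 to 0.119 without single samples, Sparc at -0.011 and -0.036 under these scalings and -0.016 to 0.045 without single samples. Without single samples Ctss ranged from -0.077 to 0.022. The replicate numbers were not used as pairs, since samples with the same number had correlations of 0.075, 0.027 and -0.005 between their deviations. With the replicate block, 859 genes were higher and 812 lower, and 2 members were lower, Itih3 having an adjusted p of 0.0269. The block changed no other call of a member. Depth was 171 counts or more per library for each member, and the lowest was that of Orm3.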

Other observations

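The replicates of a group differed in a way that many of the 10 genes shared. Control replicate 1 had the lowest control level of 8 members, both pentraxins, the 3 orosomucoids, Itih3, Itih4 and Ambp, and the highest of Itih1 and Itih2. Control replicate 3 had the highest level of the same 8 genes. After IL-1β, replicate 1 was lowest in 7 members and replicate 3 highest in 6. Coefficients of variation within a group ran from 2.28% for Itih2 after IL-1β to 23.1% for Crp in controls. No test was made of this pattern.

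Of the promoters that are not printed, Itih4 held STAT3 letters at -51 and NF-κB letters at -144 and -30, Itih3 NF-κB letters at 17 and a TATA match at 4, and Ambp NF-κB letters at -235. Itih1 held none of the motifs searched.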
